A study of Homo sapiens with 6 samples.

Results

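The genes described here are the replication-dependent histone genes, taken as every gene symbol of the tables that starts with HIST1H, HIST2H, HIST3H or HIST4H, together with 8 replacement histone genes. The rule found 73 replication-dependent symbols in 74 records, out of 23284 symbols in 24934 records. The members were selected on their symbols. A symbol listed at more than 1 locus was represented by the record chosen by its mean FPKM over the 6 samples, without regard to group, which mattered for HIST2H2BF alone. Of the 73 symbols, 66 had a mean above 1 FPKM in at least 1 group and were tested, and all 8 replacement genes passed the same filter.

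RNA came from GM12873, a B-lymphoblastoid line, that is, B cells of a single donor immortalized with Epstein-Barr virus. The 3 control samples were washed cells taken straight into trizol. The 3 lyophilized samples were washed cells suspended in 0.1 M trehalose in PBS, snap-frozen, freeze-dried and kept for 2 weeks at room temperature before trizol was added, so trehalose, drying and storage cannot be told apart. The labels pair control 1 with lyophilized 1, control 2 with lyophilized 2 and control 3 with lyophilized 3. Nothing in the labels says that the pairs were grown as separate cultures, so the p-values measure the spread between these samples of 1 line.

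Replication-dependent histone genes supply the bulk of the histones that package newly copied DNA, and their transcripts accumulate in S phase. Unlike other mRNAs of animal cells, most of these transcripts carry no poly(A) tail: they end shortly after a conserved stem-loop, which is bound by the stem-loop binding protein SLBP. The genes lack introns, lie in clusters and occur in many near-identical copies. Replacement histones are made throughout the cell cycle from ordinary polyadenylated, mostly spliced mRNAs. The libraries were selected for poly(A), so the values below are what remained of the replication-dependent transcripts after that selection and not their level in the cell. In such bulk samples fewer cells with a transcript and less of it per cell cannot be told apart.

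The 3' ends are shown first because the stem-loop is the feature that sets the class apart, and because its position fixes where most of these records stop. In the lines below, read from the GRCh37 genome on the strand of the gene, capitals mark the stem-loop and the small letters are the flanking bases. The set holds the members with the highest level or the clearest change, and the replacement gene H2AFX.
HIST1H1C: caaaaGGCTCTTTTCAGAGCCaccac
HIST1H1B: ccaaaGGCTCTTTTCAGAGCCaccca
HIST1H2AH: acaaaGGCTCTTTTCAGAGCCattct
HIST2H2AA3: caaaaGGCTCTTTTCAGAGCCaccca
HIST1H2BK: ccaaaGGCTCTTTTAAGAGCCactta
HIST1H2BD: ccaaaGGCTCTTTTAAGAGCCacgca
HIST1H3F: ccaaaGGCTCTTTTCAGAGCCaccaa
HIST1H4D: ccaacGGCCCTTTTCAGGGCCaccta
H2AFX: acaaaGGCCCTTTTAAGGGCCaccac

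The stem-loop was searched on the coding strand in the 200 nt after the stop codon, as a stem of 6 pairs that starts with GG and ends with CC around a loop of 4 bases that starts with TT. Of 67 replication-dependent symbols with a coding transcript to search, 63 held it, in 7 distinct sequences. The commonest was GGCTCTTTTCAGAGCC, in 38 members, followed by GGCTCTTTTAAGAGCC in 9 and by the H4 form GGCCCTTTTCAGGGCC in 9. Among all 19834 annotated protein-coding genes 0.41% held the same pattern, a share that includes the members themselves. Outside the genes described here 19 annotated genes held it. HIST1H2BI, HIST1H3E, HIST1H4L and HIST2H2BF had no match, and HIST1H2BF, HIST1H2BG and HIST1H4F were not searched because no annotated transcript matched their record. In 59 members the record of the tables ended within 12 nt of the stem-loop. The records of HIST1H2BD, HIST1H2BK and HIST2H2BE ran on for 12746, 8073 and 1728 nt of genome beyond it. H2AFX was the only replacement gene with the pattern, and its record continued for 1023 nt past it. The gene is known to give both a short and a polyadenylated transcript.

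The members fell into 4 clusters (hg19). HIST1 held 56 of them between positions 25726291 and 27861669 of chromosome 6. HIST2 held 13 on chromosome 1 between 120906034 and 149859466, of which HIST2H2BA, a pseudogene-type record, marks the distant lower end. HIST3 held 3 at 228612546 to 228646259 of chromosome 1. HIST4 was the single gene HIST4H4 at 14923654 to 14924065 of chromosome 12. By product there were 6 H1, 18 H2A, 20 H2B, 14 H3 and 15 H4 symbols.

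Values are FPKM, the deposited fragments per kilobase of transcript scaled to the mapped fragments of a sample. For single-exon records the FPKM values are near whole multiples of the value of 1 read, so that the reads behind them could be estimated. This assumed fragments of 200 ± 80 nt (mean ± SD). A length offset of -1.0 nt was picked on these same values to bring them nearest to whole reads. Then 99.2% of 364 values came out within 0.1 of a whole read. For olfactory receptor genes, from which the value of 1 read was taken, 95.9% of 123 did. The reads, depths and length factors below rest on that assumption. The implied depth was 13660000, 18820000 and 22620000 mapped fragments for the 3 controls and 25900000, 25120000 and 20890000 for the 3 lyophilized libraries, in order of pair number. Control 1 was thus the shallowest sample, and over the 67 records shorter than 1000 nt it held 2335 reads, against 3664 to 6697 in the other 5. The authors' program divides by an effective length, which for these short records (354 to 790 nt) is smaller than the record, so the FPKM of a short H4 gene is raised by up to 2.32 times relative to a plain division by length and that of the H1 genes by 1.34 to 1.39 times. Levels of members of different length are compared below only with that in mind. Of 7 B cell markers 7 were above 1 FPKM in every sample. The T cell, monocyte, erythroid and fibroblast markers were below 1 FPKM in every sample, and of 4 epithelial markers 3 were.

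All 73 replication-dependent symbols together gave 581, 697 and 866 FPKM in controls 1 to 3 and 798, 959 and 1030 FPKM in lyophilized samples 1 to 3. The sum was higher in the lyophilized sample of every pair, by 1.37, 1.38 and 1.19 times, although lyophilized 1 lay below control 3 and the groups therefore overlap. This sum was 0.116 to 0.188% of all FPKM of a control and 0.154 to 0.213% of a lyophilized sample. HIST1H1C and HIST1H2BK held 36.6 to 41.2% of it in controls and 28.7 to 34.1% in lyophilized samples. Without these 2 genes the sums were 342, 442 and 529 FPKM in controls and 551, 684 and 679 FPKM in lyophilized samples, so that the groups no longer overlapped and the ratio of the means rose from 1.30 to 1.46. The 8 replacement genes summed to 577, 869 and 763 FPKM in controls and to 608, 967 and 837 FPKM in lyophilized samples, within-pair ratios of 1.05, 1.11 and 1.10.

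**Figure D1:**
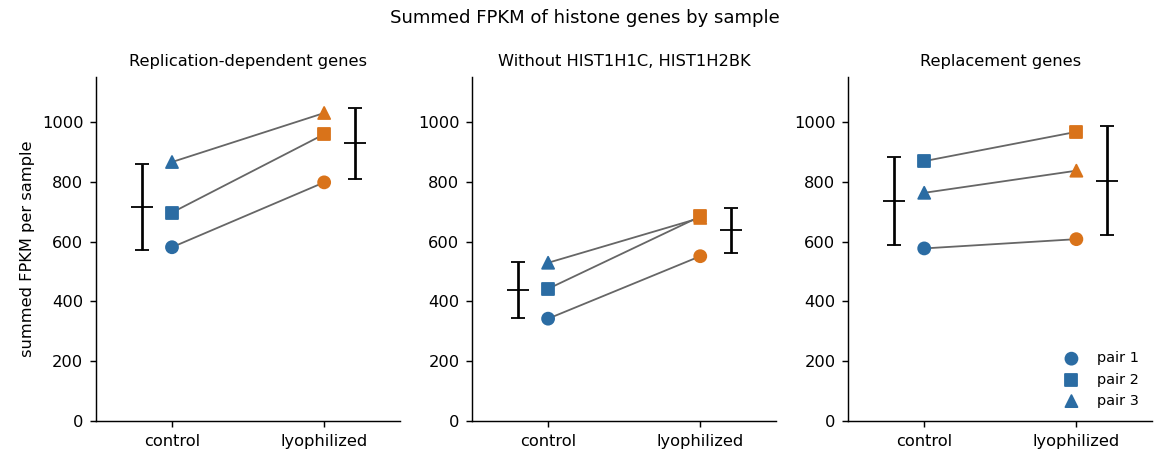
Summed FPKM (vertical axis, from 0) of the replication-dependent genes, of the same genes without the 2 highest members, and of the replacement genes in each control (blue) and lyophilized (orange) sample, with lines joining the samples of a pair and bars giving the mean ± SD (n = 3). The replication-dependent sum rises from 715 ± 144 to 929 ± 119 FPKM and the replacement sum from 736 ± 148 to 804 ± 182 FPKM, with pair 1 lowest in every panel.

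Differences between the groups were tested with limma on log2(FPKM + 0.1) over all 11134 genes tested, with Benjamini-Hochberg adjustment over all of them. Fold changes are on that scale, on which the added 0.1 shrinks the change of low genes. A single value at or near 0 can instead enlarge it. HIST2H2AB, at 0 in control 1, had a log2 fold change of 2.12 although its lyophilized mean was 2.16 times its control mean. The fit without the pairs, which leaves the pairs out as the authors' Cuffdiff comparison did, called 2 members higher in lyophilized samples at an adjusted p below 0.05 and none lower (at an unadjusted p below 0.05, 28 were higher and 0 lower). Over all genes it called 0.018% higher and 0.557% lower (4.96% higher at the unadjusted p), and HIST1H1B and HIST1H4D were the only 2 genes of the whole table that it called higher. In the fit with the pair as a block, 43 of the 66 tested members rose and none fell (0 lower at an unadjusted p below 0.05), against 15.9% of all genes higher and 14.9% lower. Every later count of genes that rose or fell in this fit is to be read against the same shares. Leaving out any 1 sample took all calls, in members and in the whole table, from the fit without the pairs. With 1 whole pair left out of the fit with pairs, 42 to 51 members rose, and 2 members fell only when pair 1 was left out. Where ± follows a log2 fold change, it is the SE in the fit without the pairs. This holds also where an adjusted p from the fit with pairs stands beside it, and the SE of that fit differs.

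The members' median log2 fold change was 0.64 (range -0.32 to 2.24), against a median of 0.04 over all genes tested, and 62 of 66 were above 0. In 46 members the lyophilized sample was higher in all 3 pairs (33.4% of all genes), and in 24 members the lyophilized samples lay above all controls (9.66% of all genes). Without the 3 members that passed the filter only through the lyophilized group these counts were 43 and 23 of 63. No member was lower in all 3 pairs (28.8% of all genes) and for none did all lyophilized samples lie below the controls (12.6%). Within pairs the median log2 difference was 0.91 in pair 1, 0.62 in pair 2 and 0.33 in pair 3. Without control 1, the shallowest sample and the one with the lowest histone values, the median over members was 0.36. That fit kept lyophilized 1, the partner of control 1. With the whole of pair 1 left out of the fit with pairs, the median was 0.47.

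**Figure D2:**
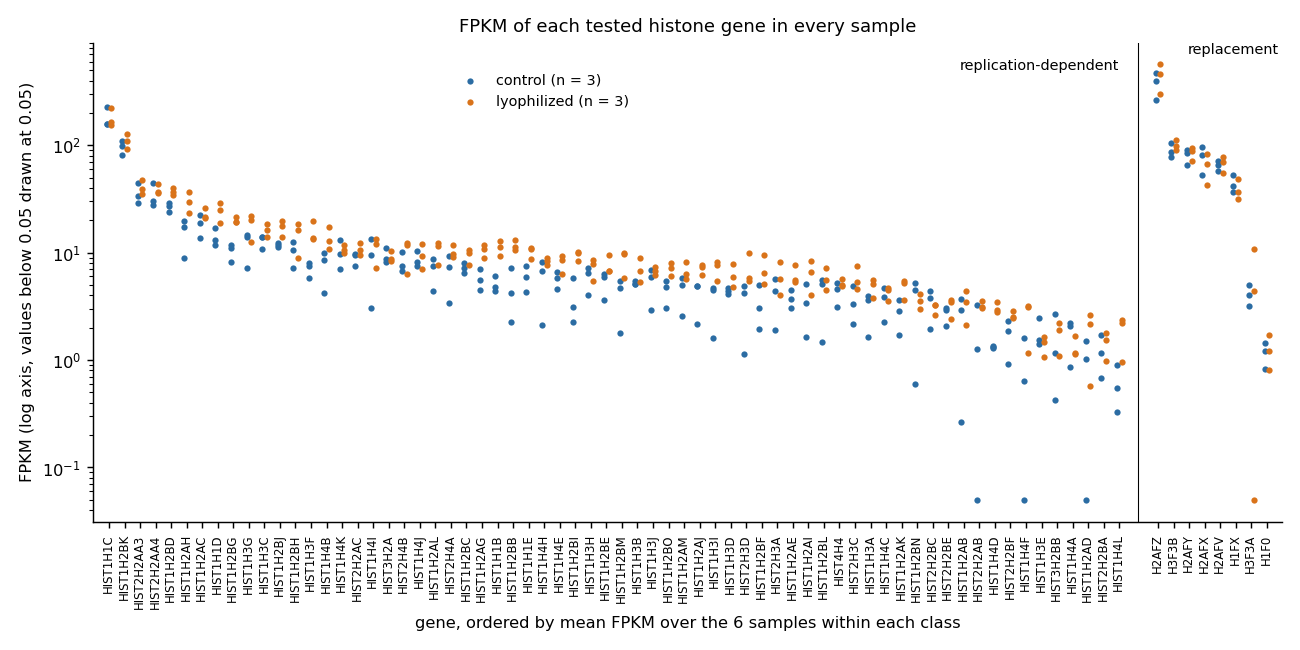
FPKM (log axis) of each of the 66 tested replication-dependent and 8 replacement genes in the 3 control (blue) and 3 lyophilized (orange) samples, ordered by mean FPKM within each class. Orange points lie above blue ones over most of the middle of the replication-dependent range, while the 2 highest members, HIST1H1C and HIST1H2BK, and all replacement genes show overlapping groups.

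**Figure D3:**
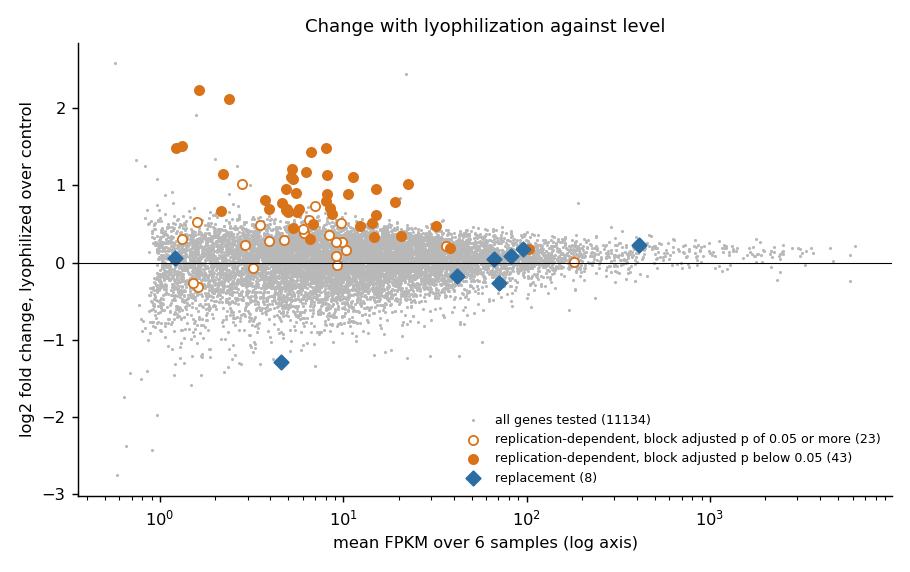
Log2 fold change of lyophilized over control against mean FPKM (log axis) for all 11134 genes tested (grey), the replication-dependent genes that passed (filled orange, 43) or did not pass (open orange, 23) an adjusted p of 0.05 in the fit with pairs, and the 8 replacement genes (blue diamonds). The replication-dependent genes spread from -0.32 to 2.24, mostly in the upper part of the grey cloud or above it, and the replacement genes lie inside it apart from H3F3A at -1.29.

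H1 histones bind the linker DNA between nucleosomes. HIST1H1C, at 26055968 to 26056699 of chromosome 6, had the highest FPKM of the replication-dependent genes in these libraries. It gave 157, 157 and 227 FPKM in controls and 155, 165 and 224 FPKM in lyophilized samples (1139 to 2724 reads). Its groups coincided, with a log2 fold change of 0.01 ± 0.20 (SE) and an adjusted p of 0.984, or 0.850 with pairs. HIST1H1B, at 27834570 to 27835359, was far lower in level, with 4.36, 4.79 and 6.02 FPKM in controls (35, 53 and 80 reads) and 9.33, 12.9 and 11.2 FPKM in lyophilized samples (142, 190 and 138 reads). The groups did not overlap. It rose by 1.13 ± 0.17 on the log2 scale, with an adjusted p of 0.0422 without and 0.000347 with the pairs.

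HIST1H1D gave 11.7, 13.2 and 16.8 FPKM in controls and 18.7, 29.2 and 25.0 FPKM in lyophilized samples. HIST1H1E gave 4.27, 5.93 and 7.59 FPKM against 8.81, 10.7 and 11.0 FPKM. Neither gene's groups overlapped. Both rose in the fit with pairs (adjusted p 0.00124 and 0.00128, log2 fold changes 0.79 and 0.80) and neither passed without them (0.143 and 0.161). The testis gene HIST1H1T was at 0 in 5 samples and HIST1H1A reached at most 0.414 FPKM, so neither was tested. Of the 4 tested H1 genes 3 thus rose with pairs, and HIST1H1C, which makes up most of the H1 signal, did not.

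The H2A genes encode a core histone that pairs with H2B. HIST2H2AA3 and HIST2H2AA4 are copies with no 75-base stretch that tells them apart, and the authors kept only reads that mapped to 1 place, yet both records hold similar values: 34.0, 29.0 and 44.3 FPKM in controls for the first and 30.5, 27.6 and 44.4 FPKM for the second. In lyophilized samples they gave 39.0, 35.2 and 47.4 FPKM and 35.6, 36.7 and 43.7 FPKM. How the reads were divided between the copies is uncertain, and their sum was 69.9 ± 16.7 FPKM in controls and 79.2 ± 10.4 FPKM in lyophilized samples. HIST2H2AA3 rose with pairs (log2 fold change 0.19, adjusted p 0.0376) and HIST2H2AA4 did not pass (0.21, 0.0747). Because the division of reads is uncertain, these calls are not separate results, and the sum was not tested. Each such copy is still counted as a separate member throughout.

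HIST1H2AH changed most among the abundant H2A genes, from 8.97, 17.3 and 19.6 FPKM in controls to 23.5, 36.8 and 29.5 FPKM in lyophilized samples. Every lyophilized value exceeded every control value. It rose by 1.02 ± 0.30 on the log2 scale (adjusted p 0.000877 with pairs, 0.196 without). Its record shares no 75-base stretch with another locus. HIST1H2AG rose similarly, from 4.46, 5.57 and 7.03 FPKM to 8.88, 10.9 and 11.8 FPKM, with a log2 fold change of 0.89 and an adjusted p of 0.000403 with pairs.

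HIST1H2AC went from 13.8, 18.9 and 22.4 FPKM in controls to 21.7, 21.0 and 26.2 FPKM in lyophilized samples, with overlapping groups. Its log2 fold change of 0.34 passed only with pairs (adjusted p 0.0243). HIST2H2AC, at 7.49, 9.51 and 9.80 FPKM against 12.2, 10.5 and 9.59 FPKM, did not pass (0.126 with pairs). HIST3H2A stayed level, at 8.23, 8.69 and 11.0 FPKM in controls and 8.28, 8.68 and 10.3 FPKM in lyophilized samples.

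Of the 16 tested H2A genes 12 rose with pairs, with a median of 0.76 over the 16. The lower ones had few reads. HIST2H2AB was at 0 in control 1 and at 3.24 and 1.26 FPKM in controls 2 and 3, against 3.14, 3.08 and 3.51 FPKM in lyophilized samples, and its log2 fold change of 2.12 rests on that 0. HIST1H2AD passed the filter only through the lyophilized group (0.836 against 1.79 FPKM on average) and had at most 17 reads in a sample. Its record overlaps that of HIST1H3D over 453 nt, and reads there cannot be told apart. HIST1H2AA and the pseudogene-type record HIST1H2APS1 were at 0 in every sample.

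The H2B genes include the members whose records run past the stem-loop. HIST1H2BK gave 81.9, 98.7 and 110 FPKM in controls and 91.9, 110 and 127 FPKM in lyophilized samples, a small increase within each pair that the overlap of the groups hides. Its log2 fold change was 0.18 ± 0.16, with an adjusted p of 0.640, or 0.0206 with pairs. HIST1H2BD, at 26158349 to 26171576 of chromosome 6, gave 23.8, 29.2 and 27.3 FPKM against 34.6, 36.4 and 40.4 FPKM. Its groups did not overlap, and it rose by 0.47 ± 0.12 on the log2 scale (adjusted p 0.00175 with pairs, 0.156 without).

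The 6 replication-dependent records of 1000 nt or more, which are HIST1H2BK, HIST1H2BD, HIST2H2BE, HIST2H2BF, HIST2H2BA and HIST1H3D, had log2 fold changes of 0.18 to 0.67 with a median of 0.37, and 4 of the 6 rose with pairs. The 52 tested records that are shorter than 1000 nt and end within 12 nt of the stem-loop had a median of 0.64, and 33 of them rose. The record of HIST1H3D also ends there, 5 nt past the stem-loop, and is long because of its stretch on the other side of the gene. HIST2H2BE was low, at 2.06, 3.05 and 2.93 FPKM in controls and 2.41, 3.61 and 3.46 FPKM in lyophilized samples, with an adjusted p of 0.154 with pairs.

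Among the short H2B records, HIST1H2BG went from 8.15, 11.0 and 11.8 FPKM to 19.4, 21.3 and 19.1 FPKM. The lyophilized values cluster tightly and lie above all controls. It missed the threshold narrowly without the pairs (log2 fold change 0.96 ± 0.16, adjusted p 0.0515) and rose with them (0.000466). HIST1H2BB, from 2.24, 4.18 and 7.15 FPKM to 10.5, 11.3 and 13.0 FPKM, and HIST1H2BI, from 3.12, 2.26 and 5.84 FPKM to 8.39, 10.2 and 10.0 FPKM, had the largest log2 fold changes of the type, 1.48 and 1.43. Both rose with pairs (0.00126 and 0.00168), and in both the groups were apart.

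HIST1H2BJ gave 12.3, 11.8 and 11.3 FPKM in controls and 13.9, 19.6 and 17.7 FPKM in lyophilized samples, and HIST1H2BH gave 7.23, 10.5 and 12.7 FPKM against 8.84, 18.4 and 16.3 FPKM. The first had separate groups and the second overlapping ones, and both rose with pairs (0.00786 and 0.00921). Of the 19 tested H2B genes 12 rose with pairs, and the median was 0.53. In HIST1H2BN control 1 stood at 0.594 FPKM (2 reads) and controls 2 and 3 at 4.52 and 5.20 FPKM, against 2.97, 3.55 and 4.08 FPKM in lyophilized samples, so that pair 1 rose and pairs 2 and 3 fell.

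H3 histones form the core tetramer with H4 and carry the lysines best known for methylation and acetylation. HIST1H3F, at 26250370 to 26250835 of chromosome 6, went from 5.83, 7.46 and 8.05 FPKM (21, 37 and 48 reads) to 13.5, 19.5 and 13.8 FPKM (92, 129 and 76 reads). The groups were well apart, and the gene rose by 1.11 ± 0.19 on the log2 scale, with an adjusted p of 0.0548 without and 0.000403 with pairs. HIST1H3G gave 7.19, 14.1 and 14.7 FPKM in controls and 12.5, 21.8 and 20.1 FPKM in lyophilized samples. Its groups overlapped through pair 1 and it rose with pairs (0.62, adjusted p 0.00129).

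HIST1H3C differed in pair 1 by less than the rounding shows (14.0 FPKM in both samples, the lyophilized one counted as higher) and was higher after lyophilization in the others, with 10.8 and 14.1 FPKM in controls 2 and 3 and 16.4 and 18.3 FPKM in lyophilized samples 2 and 3 (adjusted p 0.0427 with pairs). HIST2H3A and HIST2H3C are copies with no distinguishing 75-base stretch, and together they gave 7.45 ± 3.26 FPKM in controls and 11.8 ± 3.59 FPKM in lyophilized samples. Of the 13 tested H3 genes 10 rose with pairs, around a median of 0.62. HIST1H3E had the lowest fold change of all members, -0.32 ± 0.26, at 1.41, 2.46 and 1.53 FPKM against 1.64, 1.07 and 1.48 FPKM. It fell only when pair 1 was left out of the fit with pairs (adjusted p 0.0165), as did HIST1H4A (0.0173). HIST3H3, the testis H3, was seen as 1 read in 1 lyophilized sample.

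H4 genes had the shortest records. HIST1H4D, at 26188938 to 26189304 of chromosome 6, had the smallest p of all members without the pairs, at 1.33, 1.29 and 1.34 FPKM in controls and 2.81, 2.90 and 3.48 FPKM in lyophilized samples. These values correspond to 3, 4 and 5 reads against 12 in each lyophilized sample. The 3 control values differ by less than the worth of 1 read, which for the shortest member was 0.29 to 0.48 FPKM in the controls, and the call (log2 fold change 1.15 ± 0.16, adjusted p 0.0374, or 0.000809 with pairs) rests on them. HIST1H4B, with more reads, went from 4.25, 8.56 and 9.97 FPKM to 10.7, 12.8 and 17.3 FPKM and rose with pairs (0.89 ± 0.32, adjusted p 0.00169).

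HIST1H4I gave 3.05, 9.49 and 13.4 FPKM in controls and 7.13, 12.1 and 13.4 FPKM in lyophilized samples, and its record lies inside that of HIST1H2BK. It did not pass (0.0563 with pairs). HIST1H4J and HIST1H4K share 91.4% and 92.0% of their 75-base stretches with other loci. Their sum was 18.6 ± 4.53 FPKM in controls and 20.2 ± 2.42 FPKM in lyophilized samples, and neither passed in either fit. For HIST2H4A and HIST2H4B, which have no unique stretch, the sum was 14.9 ± 4.06 FPKM against 20.4 ± 4.28 FPKM.

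In all, 6 of 14 tested H4 genes rose with pairs, with a median of 0.51. HIST1H4F and HIST1H4L passed the filter only through the lyophilized group. HIST1H4F, with no read in control 1 and at most 13 in any sample, had the largest log2 fold change of the members, 2.24 ± 0.95. At the filter itself, HIST2H2BA (1.18 FPKM in controls and 1.43 FPKM in lyophilized samples on average) and HIST1H4A (1.71 and 1.33 FPKM) lay just inside. The next members outside, HIST1H1A (0.138 and 0.319 FPKM) and HIST3H3 (0 and 0.0462 FPKM), were well below 1 FPKM. HIST1H4G and HIST1H2BA were at 0 throughout.

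**Figure D4:**
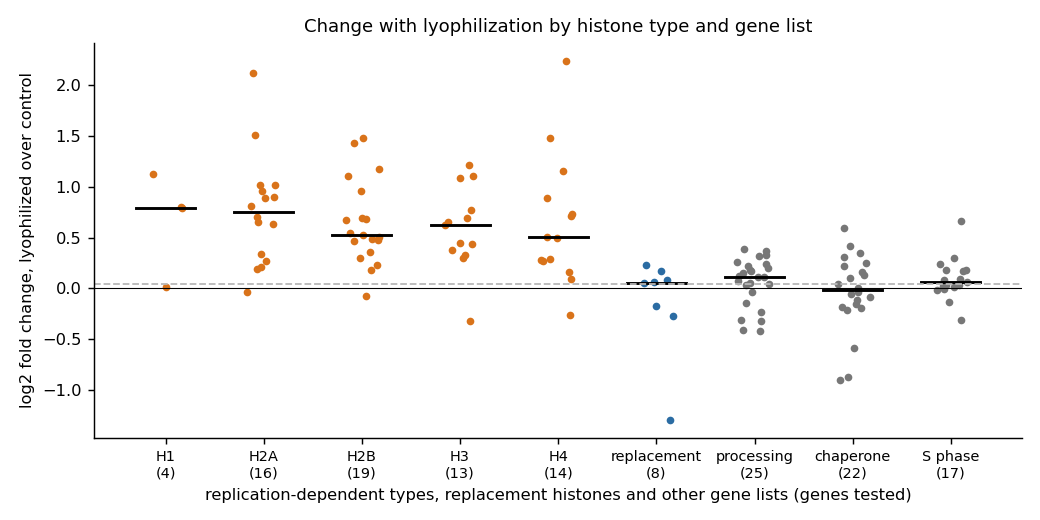
Log2 fold change of lyophilized over control for each tested gene, grouped into the 5 replication-dependent histone types (orange), the replacement histones (blue) and the lists of histone mRNA processing, histone chaperone and S phase genes (grey), with the number tested in brackets, black bars at the medians and a dashed line at the median of all genes. The medians of the 5 types run from 0.51 to 0.79, and those of the 4 other groups from -0.01 to 0.11.

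By cluster, 36 of 50 tested HIST1 genes and 7 of 13 tested HIST2 genes rose with pairs, with median log2 fold changes of 0.68 and 0.30. The difference between the clusters was not tested. Neither of the 2 tested HIST3 genes nor HIST4H4 (3.14, 4.56 and 5.27 FPKM against 5.71, 4.94 and 5.02 FPKM) passed. By level, in the highest, middle and lowest groups of 22 members by mean FPKM the medians were 0.41, 0.72 and 0.68, with 14, 17 and 12 genes that rose with pairs. Across the 66 tested members the Spearman correlation of fold change with mean FPKM was -0.24, a description over genes that share the same 6 libraries.

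Members with close copies were looked at apart, since the authors describe keeping only reads with 1 mapping position. Copies with no unique 75-base stretch, such as HIST2H2AA3 and HIST2H2AA4, still held reads, so reads that fit several places were not all lost. Of the 15 members with 20% or more of their 75-base stretches found elsewhere in the genome, 9 rose with pairs and the median log2 fold change was 0.53. Of the 51 tested members with less than 20%, 34 rose and the median was 0.65. The 63 tested members that did not depend on 1 group to pass the filter included 40 that rose.

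The replacement histones were tested in the same fits, and without the pairs none of the 8 passed (0 at an unadjusted p below 0.05). H2AFZ encodes H2A.Z, which marks promoters. In these poly(A)-selected libraries it had the highest FPKM of the histone genes. It gave 264, 466 and 396 FPKM in controls and 298, 565 and 462 FPKM in lyophilized samples. This does not rank levels in the cell, since most replication-dependent transcripts carry no poly(A) tail. H2AFZ was higher in the lyophilized sample of each pair while the groups overlapped. H3F3B, which encodes H3.3, gave 78.0, 104 and 87.4 FPKM against 89.8, 113 and 99.2 FPKM. Both rose with pairs, by 0.23 and 0.17 on the log2 scale (adjusted p 0.00481 and 0.0254), and neither passed without them (0.741 and 0.613). They were 2 of the 8 genes, against 15.9% of all genes that rose in the fit with pairs.

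H2AFX, the source of the DNA damage mark gamma-H2A.X, went the other way in every pair, from 52.8, 97.0 and 80.8 FPKM to 42.9, 83.3 and 66.5 FPKM. H1FX, a linker histone, gave 53.1, 41.7 and 36.5 FPKM in controls and 48.9, 36.4 and 31.6 FPKM in lyophilized samples. Both fell with pairs, with log2 fold changes of -0.27 and -0.17 (adjusted p 0.00543 and 0.0399). They were 2 of the 8 replacement genes, against 14.9% of all genes that fell in that fit. Both genes are GC-rich, at 66.8% and 68.6%. Once GC content was taken into account in the fit with pairs their log2 fold changes were 0.07 and 0.16, of the opposite sign, and neither passed (adjusted p 0.323 and 0.0837).

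H2AFY, which encodes macroH2A, gave 65.6, 90.2 and 85.1 FPKM in controls and 71.0, 94.7 and 88.2 FPKM in lyophilized samples. H2AFV, a second H2A.Z gene, gave 57.8, 65.7 and 70.6 FPKM against 55.2, 69.3 and 77.1 FPKM. H1F0, the linker histone of differentiated cells, was low at 1.44, 1.22 and 0.831 FPKM against 1.72, 0.805 and 1.22 FPKM. None of these 3 genes passed in either fit.

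The record of H3F3A, the second H3.3 gene, held 4.07, 3.22 and 5.05 FPKM in controls and 0.000107, 4.38 and 10.7 FPKM in lyophilized samples. It overlaps the record H3F3AP4 over 9276 nt, and the reads of the 2 cannot be told apart. Their sum was 73.1, 80.7 and 82.6 FPKM in controls and 75.1, 94.8 and 101 FPKM in lyophilized samples, with a log2 fold change of 0.19 ± 0.14 (adjusted p 0.550, or 0.0372 with pairs). The fold change of -1.29 fitted to H3F3A alone rests on the near-zero value of lyophilized 1, and without pair 1 it was 0.75.

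In the fit without the pairs the median log2 fold change of the 8 replacement genes was 0.05, against 0.64 over the replication-dependent genes. The difference between the classes was not tested as such. Of the further variants listed for comparison, CENPA (15.8, 25.8 and 18.5 FPKM in controls and 16.6, 27.9 and 21.9 FPKM in lyophilized samples) and H2AFJ (5.04 ± 1.20 against 5.03 ± 0.907 FPKM) did not pass in either fit. Of the 11 genes on that list 4 were tested and none passed without the pairs (0 at an unadjusted p below 0.05). With the pairs 2, H3F3C and H3F3AP4, rose, against 15.9% of all genes. H3F3AP4 is the record that overlaps H3F3A, so its rise is not separate from that of their sum given above.

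GC content moved with the fold change across the table. Over 11067 genes tested with a matched transcript the Spearman correlation of the log2 fold change with transcript GC content was -0.75, so that GC-rich genes were lower in lyophilized samples. The 66 tested members are GC-rich, with a median of 58.2% against 48.9% over all genes, and their correlation with GC among themselves was -0.19. When a smooth curve over GC content was subtracted in each sample in the fit with pairs, 47 of 66 members rose and none fell, against 9.34% of 11070 genes higher and 6.87% lower, and the median over members was 0.82. HIST1H1C then rose as well (0.17, adjusted p 0.0201), as did HIST3H2A (0.28, 0.0223). None of the 8 replacement genes passed in that fit (2 at an unadjusted p below 0.05). Transcript length showed no such relation over all genes (0.01).

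**Figure D5:**
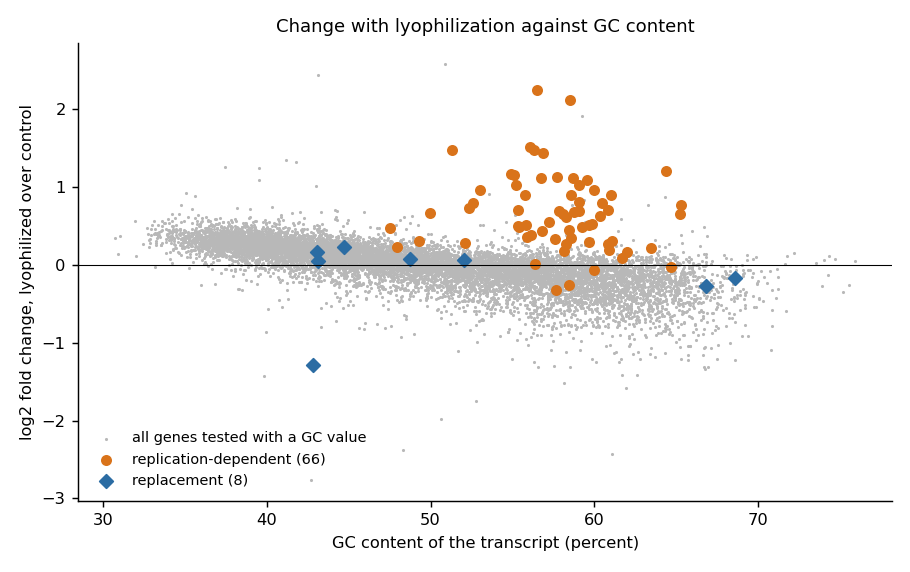
Log2 fold change of lyophilized over control against the GC content of the transcript for all genes tested that have a GC value (grey), the 66 replication-dependent genes (orange) and the 8 replacement genes (blue). The grey cloud slopes downwards with GC content, the replication-dependent genes lie mostly above it at a median GC content of 58.2%, and the replacement genes other than H3F3A lie within it.

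The 3 pairs also differed from each other. A test of the pair number, with the condition in the model, called 39 of 66 replication-dependent genes and 6 of 8 replacement genes, against 45.2% of all genes. The lowest of the 3 controls was control 1 for 49 of the 66 members and control 3 for 3 of them. In the lyophilized samples, lyophilized 1 was lowest for 47. HIST1H1C was similar in pairs 1 and 2 and higher in pair 3 in both groups (adjusted p 0.000154), and HIST1H3G was lowest in pair 1 in both (0.000230). H2AFZ and H2AFX differed most clearly among the replacement genes (1.9e-05 and 3.6e-05), with pair 1 lowest and pair 2 highest in both groups.

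Genes of DNA replication differed between the pairs as well, all 17 of the S phase list, against 45.2% of all genes. PCNA, the sliding clamp of DNA polymerase, gave 120, 243 and 188 FPKM in controls and 141, 260 and 212 FPKM in lyophilized samples. Against lyophilization none of the 17 passed without the pairs (0 at an unadjusted p below 0.05). With the pairs 3 rose (17.6%) and 1 fell, at a median of 0.06, close to the 15.9% of all genes that rose, while 14.9% of all genes fell. Whether the pairs differed in their share of cells in S phase was not tested.

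Of the genes that make or handle histone mRNA and histones, 2 of 47 were called without the pairs, both lower. Over all genes that fit called 0.557% lower and 0.018% higher. SRCAP, the motor of a complex that deposits H2A.Z, fell from 8.98, 9.97 and 10.6 FPKM to 4.70, 5.31 and 5.71 FPKM, a log2 fold change of -0.90 (adjusted p 0.0385). EP400, of a related complex, fell from 6.34, 6.42 and 7.28 FPKM to 3.39, 3.57 and 3.86 FPKM, a log2 fold change of -0.87 (0.0385). In neither gene did the groups overlap (12.6% of all genes lay below their controls in this way). Both stayed lower when GC content was taken into account in the fit with pairs (0.00168 and 0.00198).

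With pairs, 5 of 25 processing genes rose and 4 fell, and 6 of 22 chaperone genes rose and 3 fell, against 15.9% and 14.9% of all genes. SLBP itself gave 44.4, 65.0 and 56.6 FPKM in controls and 49.4, 68.9 and 60.8 FPKM in lyophilized samples. Its log2 fold change of 0.11 did not pass without the pairs (SE 0.18, adjusted p 0.797) or with them (SE 0.05, adjusted p 0.113). NPAT, the activator of histone gene transcription, gave 4.29, 6.84 and 5.30 FPKM against 6.11, 7.05 and 7.17 FPKM and passed narrowly with pairs (0.33, 0.0494), but not with GC content subtracted (0.780). SYMPK, the scaffold of the cleavage complex, fell with pairs from 42.2, 40.1 and 41.2 FPKM to 31.6, 30.4 and 30.0 FPKM (-0.42, 0.00125). CABIN1, a subunit of the H3.3 chaperone HIRA complex, fell from 13.1, 12.9 and 14.0 FPKM to 8.27, 8.91 and 9.34 FPKM (-0.59, 0.00124). ATRX, which works with DAXX in depositing H3.3, rose from 4.34, 4.76 and 4.67 FPKM to 6.94, 5.90 and 8.31 FPKM (0.59, 0.00590). HAT1, which acetylates new H4, gave 20.6, 43.4 and 31.7 FPKM in controls and 28.9, 52.4 and 45.0 FPKM in lyophilized samples, higher in each pair while the groups overlapped (0.42, 0.00243). With GC content subtracted, SYMPK, CABIN1 and ATRX still passed (0.0368, 0.00614 and 0.0347) and HAT1 did not (0.0714).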

How the data were processed

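The authors aligned 75-nt single-end reads of poly(A)-selected TruSeq v2 libraries to hg19 with TopHat2 2.0.7, kept reads with 1 mapping position and deposited 1 table of Cufflinks FPKM values per sample. The submitters' notes also list CASAVA 1.4. The Cufflinks version and the gene models are not given in the sources used here. Loci were matched to GENCODE transcripts on GRCh37, for GC content, stem-loops and 75-nt stretches.

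Small RNA symbols (1624) were removed and a gene was kept when either group's mean exceeded 1 FPKM. The fits used limma 3.58.1 (R 4.3.3) on values of log2(FPKM + 0.1) with a variance trend and Benjamini-Hochberg adjustment, once without and once with the pair as a block. The pairing comes from the labels, and deviations within pairs correlated at 0.716, 0.603 and 0.476. The GC curve was a loess of span 0.3. The fits were tested on simulated data. Python 3.11.15 was used.

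Members and lists were chosen with earlier results of these data known. Named were the 20 members with the highest mean, members past 0.05 in either fit, those next to the filter, SLBP, NPAT and the strongest processing and chaperone genes. HIST1H2BN, HIST1H3E, HIST1H4J, HIST2H2BE, HIST4H4, PCNA, CENPA and H2AFJ were picked after their values were seen. Alternatives covered pseudocount, filter, scaling, trend, GC and each sample left out. The number of samples and reads limits precision.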

Additional observations from a re-analysis of the deposited data

How the results depend on the processing

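With the pair as a block, 43 replication-dependent, 4 replacement, 18 processing and chaperone genes and 3423 genes in all passed, against 2, 0, 2 and 64 without it. Adding the GC curve to the block gave 47, 0, 8 and 1794. Chosen after seeing the data, the block with median-ratio scaling gave 45, 3, 19 and 3485, and the block with a mean above 2 FPKM gave 44, 4, 18 and 3444. The block without replicate 1, 2 or 3 gave 44, 46 and 51 replication-dependent genes, 3, 4 and 3 replacement genes, 11, 29 and 8 processing and chaperone genes, and 2205, 5355 and 1257 genes in all. With H3F3A summed with H3F3AP4 the block gave 5 replacement genes. Without the block, leaving out any 1 of the 6 samples gave 0 calls in each of these groups and so did testing 18202 genes with no filter on low values, while median-ratio scaling gave 4 replication-dependent genes and 101 in all, and no variance trend gave 1 replication-dependent gene.

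The median log2 fold change of replication-dependent genes ran from 0.36 to 0.86 when 1 sample was left out, and that of replacement genes from -0.03 to 0.19 (-0.07 with the block and no replicate 3). The ratio of summed FPKM then ran from 1.19 to 1.45 for replication-dependent genes (1.46 without HIST1H1C and HIST1H2BK) and from 0.981 to 1.23 for replacement genes. The pair number was called for 8 replication-dependent genes without a filter and for 21 without a trend, against 39. With the block and GC curve HIST3H2A changed from -0.03 to 0.28, H2AFX from -0.27 to 0.07 and H1FX from -0.17 to 0.16 (the last 2 did not pass there), and H3F3A from -1.29 to 0.75 with the block and no replicate 1. The cause of these changes was not tested. Low members rest on few reads: at 1 FPKM a sample holds only a handful for the shortest records.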

Other observations

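Other RNAs that end without a poly(A) tail appeared in these poly(A)-selected libraries too. Of the chosen RNAs 7 had a record, while RN7SK, RNY1 and RNY3 had none under those symbols. Each of the 6 detected of these 7 had more FPKM after lyophilization within all 3 pairs. So did 33.4% of all genes tested, a set that holds only 3 of the 7. RMRP, the RNA of the RNase MRP complex, gave 106, 133 and 188 FPKM in controls and 203, 270 and 240 FPKM in lyophilized samples, with no overlap (9.66% of all genes tested lay above their controls in this way). RPPH1, the RNA of RNase P, gave 9.44, 17.1 and 18.4 FPKM against 22.7, 31.3 and 24.0 FPKM, also with no overlap. TERC, the telomerase RNA, gave 4.42, 12.6 and 8.18 FPKM against 8.08, 15.9 and 10.0 FPKM, with overlapping groups. These 3 of the 7 RNAs were tested. They rose with the pair as a block (adjusted p 0.00145, 0.00259 and 0.0128, log2 fold changes 0.77, 0.84 and 0.49) and did not pass without it (0.178, 0.217 and 0.576). In the fit with the block 15.9% of all genes rose.

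The RNAs of the minor spliceosome were outside the test, because small nuclear RNAs were among the 1624 small RNA symbols removed from it. RNU4ATAC gave 23.2, 25.1 and 34.8 FPKM in controls and 91.1, 75.1 and 75.3 FPKM in lyophilized samples. RNU12 gave 7.05, 20.4 and 29.6 FPKM against 51.8, 57.2 and 68.8 FPKM, and RNU11 gave 50.5, 50.9 and 48.4 FPKM against 111, 92.7 and 65.6 FPKM. In all 3 the lyophilized values lay above every control value. The records of RNU4ATAC, RNU11 and RNU12 are only 130, 135 and 149 nt long, shorter than any histone record. Division by an effective length raises the FPKM of such records more, so their levels cannot be set beside those of the histone genes. The reads behind them were not recovered. RNY4 was listed at 0 in every sample. Whether the poly(A) selection let more of such RNAs through in the lyophilized samples was not tested.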
